A study of Mus musculus with 6 samples.

Results

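Transcripts of 9 feedback inhibitors of mitogen-activated protein (MAP) kinase signalling were followed in mouse T cells differentiated in culture. They are the dual-specificity phosphatases Dusp1, Dusp2, Dusp4, Dusp5, Dusp6 and Dusp10, the Sprouty genes Spry1 and Spry2, and the Sprouty-related Spred1. They were taken by symbol, and all 9 were found among the 24493 gene symbols of the table. Messenger RNA came from cells labelled as regulatory T (Treg) cells, a CD4 T cell type that holds immune responses in check, which had been induced in vitro from naive CD4 T cells of the spleen. The 6 libraries were 3 of the Ifnar1-SA genotype and 3 of the wild-type (WT) genotype, and the labels give no other treatment, age or culture time for either. The Ifnar1 gene makes 1 of the subunits of the receptor for type I interferons. As published, its SA allele puts alanine in place of a serine that marks the receptor for breakdown, and the receptor persists. The comparison asks how the transcripts of these cells differ when the receptor carries this change.

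MAP kinases relay signals from the T cell antigen receptor, cytokine receptors and stress. The ERK branch is started by RAS, while the p38 and JNK branches respond to cytokines and stress. The pathway switches on its own inhibitors. DUSP enzymes remove phosphate from the threonine and tyrosine that activate a MAP kinase, and Sprouty and Spred proteins act further up, where receptors and RAS activate RAF. In T cells several of these genes are known as early targets of antigen receptor stimulation, so that their transcripts are often read as a record of recent signalling.

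The members lie on 8 mouse chromosomes. In the GENCODE M21 annotation of GRCm38, Dusp4 spans chromosome 8, 34807297 to 34819894, on the plus strand. Dusp5 spans chromosome 19, 53529109 to 53542431 (plus strand), Dusp6 chromosome 10, 99263231 to 99267489 (plus strand), and Dusp2 chromosome 2, 127336159 to 127338376 (plus strand). Dusp1 lies on the minus strand of chromosome 17, between 26505590 and 26562128, and Dusp10 on the plus strand of chromosome 1, between 184013302 and 184075636. Spry1 spans chromosome 3, 37639947 to 37644598 (plus strand), Spry2 chromosome 14, 105891947 to 105896819 (minus strand), and Spred1 chromosome 2, 117121374 to 117182279 (plus strand). All 9 are protein-coding, and the values sum over whole genes, so no exon can be told from another. Exons of 3 members share bases with a gene on the opposite strand. Dusp5 shares 547 bases with the antisense gene AC137853.2, Spry1 shares 710 with Gm42922 and Dusp1 shares 11 with Ergic1. Use of strand in quantification is not stated, so reads of these stretches cannot be assigned to 1 gene with certainty.

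Promoter sequence was taken from the RefSeq table of GRCm38.p6, in which 8 of the 9 members had an entry, all but Dusp4. The 250 bases before each start were searched on both strands for 5 motifs. These were the cyclic AMP response element TGACGTCA, the AP-1 motif TGANTCA, the CArG box bound by serum response factor, the ETS motif CCGGAA and the interferon response core, GAAA repeated after 2 free bases. The matches found did not overlap one another, and 2 of the 8 promoters held a match. Dusp1 had a cyclic AMP response element, which 1.55% of all 32851 promoter windows held. Dusp5 had a pair of adjoining CArG boxes, a motif that 1.47% of all windows held. The AP-1 motif was in 6.75% of all windows, the ETS motif in 12% and the interferon core in 2.98%, and the 8 member windows held 0 matches to these letters. The matching stretches are shown from 200 to 41 bases before the start, because these are the 2 promoters with a match. They run 5′ to 3′ on the gene's strand, with the matched motifs in capitals. Dusp1 covers chr17:26508513-26508672 (minus strand) and Dusp5 covers chr19:53528945-53529104 (plus strand). The Dusp1 stretch lies before the RefSeq start, which is inside the GENCODE span given above, since that span runs on to 26562128.
Dusp1: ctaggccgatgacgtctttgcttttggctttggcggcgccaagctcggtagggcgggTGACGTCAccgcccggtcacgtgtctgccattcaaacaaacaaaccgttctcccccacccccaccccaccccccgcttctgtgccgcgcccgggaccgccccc
Dusp5: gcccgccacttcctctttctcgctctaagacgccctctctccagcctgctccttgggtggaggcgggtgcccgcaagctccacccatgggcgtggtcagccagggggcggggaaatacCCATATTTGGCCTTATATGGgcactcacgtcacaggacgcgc

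Expression was given as TPM, a share of transcripts corrected for transcript length and scaled to 1e+06 in each library. It keeps no sequencing depth, so no counting interval can be given. Between 21925 and 22958 symbols were above 0 in a library, and 0 pairs of libraries held identical values. Nothing in the labels tells whether the 3 libraries of a genotype are separate mice or cultures, and the p-values speak only to the spread among these samples, possibly a technical one. Ifnar1 itself had 28.0, 25.3 and 21.8 TPM in Ifnar1-SA, against 24.01, 41.9 and 27.3 TPM in WT. These ranges overlapped, and TPM of a gene cannot show an amino acid change, so the labels are not checked by them. T cell genes were abundant, with Cd3e at 90.2 to 109 TPM in Ifnar1-SA and 101 to 123 TPM in WT. Of the 6 Treg markers, Il2ra, Ctla4 and Tnfrsf18 were high. Foxp3, the transcription factor that defines Treg cells, was at 0.746 to 1.82 TPM in Ifnar1-SA and 0.276 to 0.697 TPM in WT, and Ikzf2 and Lrrc32 reached at most 2.73 TPM. The cells are therefore called by their label here, with a defining marker near 0.

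Within every library 4 transcripts formed an upper tier and the other 5 lay below it. Dusp5, Dusp6, Dusp2 and Dusp4 made up that tier, between 22.5 and 52.7 TPM in all 6 libraries. Dusp1 followed at 6.74 to 12.9 TPM, Dusp10 at 2.93 to 5.13 TPM and Spry1 at 1.05 to 2.30 TPM, each the next in order in all 6 libraries. Spry2 and Spred1 were at the bottom, from 0.520 to 1.16 TPM, and changed places between libraries. The 4 abundant phosphatases did not overlap Dusp1 in any library, and Dusp1, Dusp10 and Spry1 did not overlap one another. By mean level the order in Ifnar1-SA was Dusp5, Dusp6, Dusp2, Dusp4, and in WT it was Dusp5, Dusp6, Dusp4, Dusp2. Neighbours among these 4 overlapped in range in WT. In Ifnar1-SA the neighbours overlapped as well, though Dusp4 was below Dusp5 and Dusp6 in each of the 3 libraries. The 6 DUSP transcripts summed to 152 ± 11.5 TPM in Ifnar1-SA and 164 ± 19.3 TPM in WT (SD, n = 3 each), so their total differed by less than the spread.

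**Figure D1:**
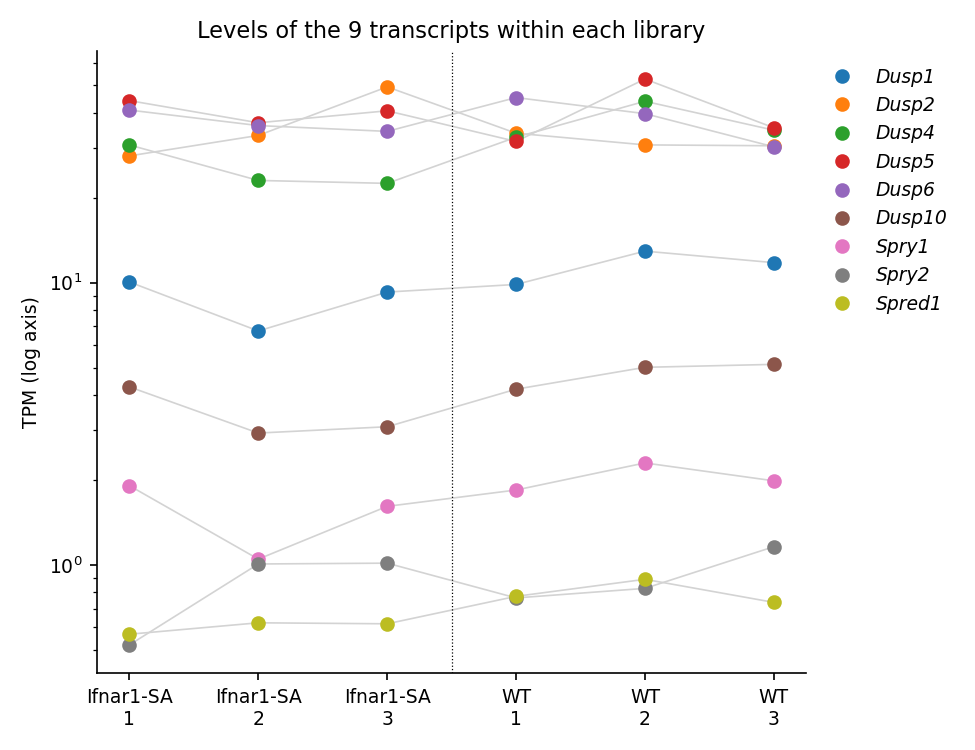
TPM of the 9 transcripts (log axis) in the 3 Ifnar1-SA and the 3 WT libraries, each colour a gene and grey lines joining its values. Dusp5, Dusp6, Dusp2 and Dusp4 form the upper tier, Dusp1, Dusp10 and Spry1 keep the same order in all 6 libraries, and Dusp4 sits at 22.5 to 30.8 TPM in Ifnar1-SA against 32.8 to 43.9 TPM in WT.

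Between the genotypes, no member passed the test. The values were compared as log2(TPM + 1) with limma over the 12141 genes that averaged 1 TPM or more, and 7 of the 9 members met that mean. At a Benjamini-Hochberg adjusted p of 0.05, 0 of the 7 were called, against 7 of all genes (0.0577%). Every tested member had an adjusted p of 0.9997. By unadjusted p under 0.05, 1 of the 7 was lower in Ifnar1-SA (1.68% of all genes were) and 0 were higher (1.44%). The 7 had a median log2 difference of -0.28, with 5 below 0 and 2 above, beside a median of -0.06 over all genes, of which 62.9% were below 0. Spry2 and Spred1 were under the filter and are given with exact permutation tests. Cells were sequenced in bulk, so fewer cells of a type and less RNA per cell cannot be told apart.

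Dusp4, a nuclear phosphatase that acts on ERK and other MAP kinases and is induced by antigen receptor signals, showed the largest difference of the 7. It had 30.8, 23.03 and 22.5 TPM in the Ifnar1-SA libraries and 32.8, 43.9 and 34.7 TPM in the WT libraries. All 3 Ifnar1-SA values were below all 3 WT values, although Ifnar1-SA 1 and WT 1 lay close together. Means were 25.4 ± 4.63 TPM in Ifnar1-SA and 37.1 ± 5.97 TPM in WT (SD, n = 3 each), a ratio of 0.685. On the log2 scale the difference was -0.53 ± 0.19 (standard error), with a 95% interval of -0.98 to -0.08 (limma, unadjusted p = 0.0273, adjusted p = 0.9997). Among the 7 tested members it was the 1 with separated groups. Over all genes 3.8% were lower and 1.97% were higher in Ifnar1-SA without overlap. Dusp4 supplied 19.4%, 16.6% and 14.1% of the 6 DUSP transcripts in the Ifnar1-SA libraries and 20.8%, 23.7% and 23.5% in the WT libraries. Those shares did not overlap, but they rest on the same Dusp4 values and are no separate result. Its unadjusted limma p was 0.0953 without WT 2 (log2 difference -0.41), 0.0884 without Ifnar1-SA 2 (-0.47) and 0.0985 without Ifnar1-SA 3 (-0.45).

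Dusp5 and Dusp2, the other abundant nuclear phosphatases, did not follow Dusp4. Dusp5, which is specific for ERK, was at 44.2, 36.9 and 40.7 TPM in Ifnar1-SA and 31.7, 52.7 and 35.4 TPM in WT. The Ifnar1-SA values all lay inside the WT range, which WT 2 set at its upper end. Its log2 difference was 0.05 with a 95% interval of -0.46 to 0.56 (limma, adjusted p = 0.9997), and 0.27 without WT 2. Dusp2, a phosphatase found mainly in blood cells and first known from activated T cells, was at 28.1, 33.3 and 49.4 TPM in Ifnar1-SA and 33.9, 30.8 and 30.6 TPM in WT. The WT values were close together and the Ifnar1-SA values spread on both sides of them, with coefficients of variation of 30.1% in Ifnar1-SA and 5.82% in WT. Its log2 difference was 0.18 with a 95% interval of -0.35 to 0.70 (limma, adjusted p = 0.9997). Without Ifnar1-SA 3, the highest library, the difference was -0.05.

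Dusp1, the nuclear phosphatase best known for ending p38 and JNK signals, was lower in mean but overlapped. It had 10.1, 6.74 and 9.26 TPM in the Ifnar1-SA libraries and 9.86, 12.9 and 11.8 TPM in the WT libraries. Ifnar1-SA 1 exceeded WT 1, and the other Ifnar1-SA values were below all WT values. Its log2 difference was -0.38 ± 0.19 (standard error; limma, unadjusted p = 0.0842, adjusted p = 0.9997). Without Ifnar1-SA 2, the lowest library, it was -0.23 (limma, unadjusted p = 0.283).

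**Figure D2:**
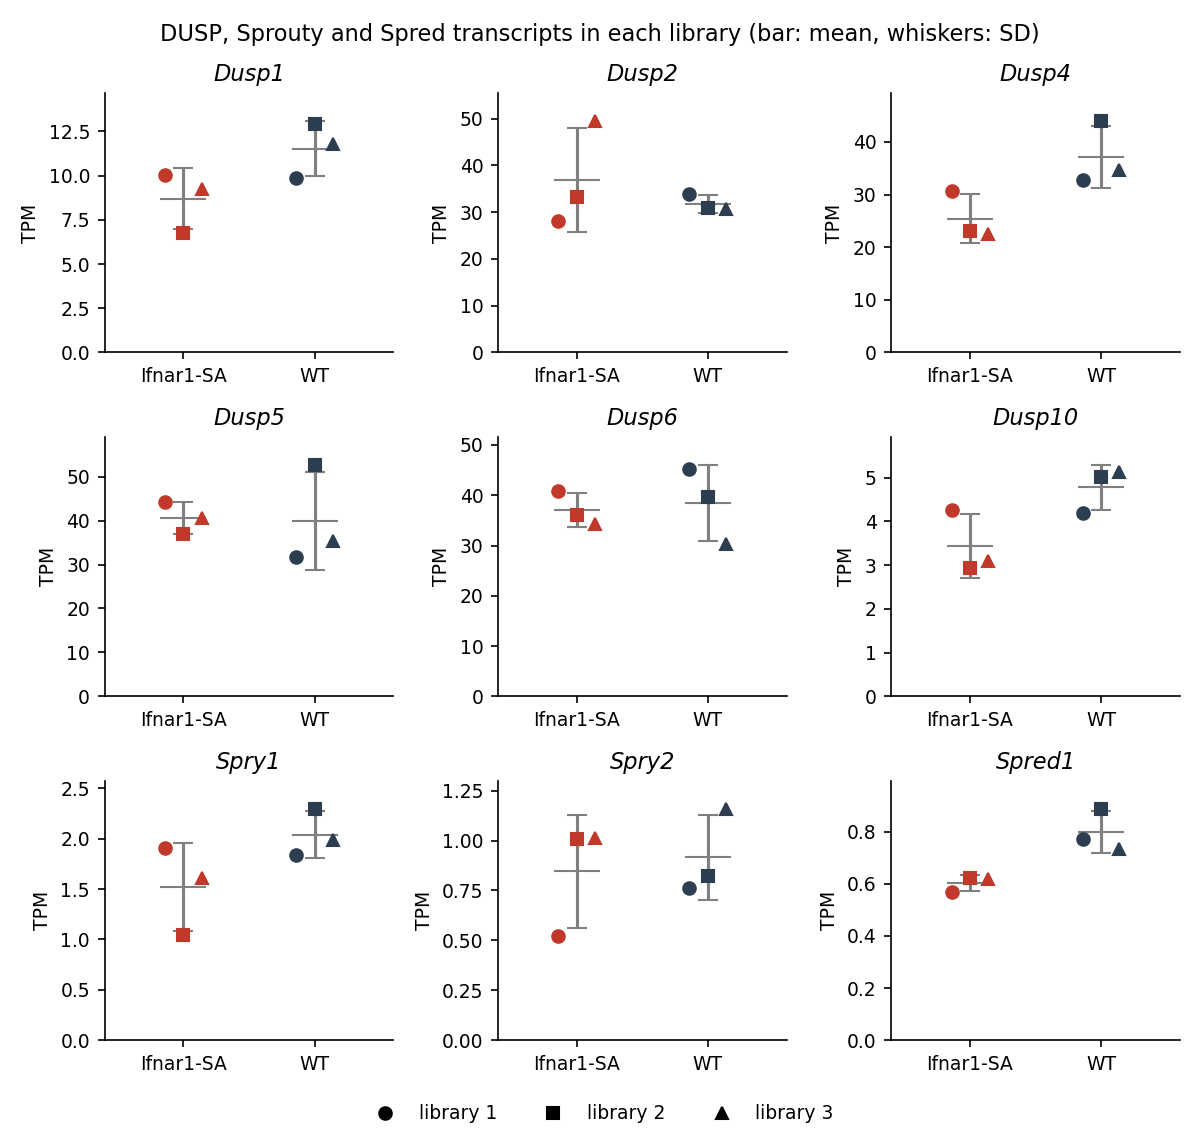
TPM of each of the 9 transcripts in every library, Ifnar1-SA in red and WT in dark blue, with the mean as a bar, SD as whiskers and the symbol giving the library number. Dusp4 and Spred1 are the 2 genes whose groups do not overlap. Of all genes past the filter 3.8% were lower without overlap, a share that does not cover Spred1, which is under the filter. The vertical axes differ between genes and start at 0.

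Dusp6, the cytoplasmic phosphatase specific for ERK, was nearly level between the genotypes. It was at 40.9, 36.0 and 34.4 TPM in Ifnar1-SA and 45.3, 39.7 and 30.3 TPM in WT. The Ifnar1-SA values lay within the WT range. The log2 difference was -0.03 with a 95% interval of -0.48 to 0.41 (limma, adjusted p = 0.9997), so its lower bound lay near the value of Dusp4. The sign was positive under quantile (0.01), median-of-ratios (0.03) and trimmed-mean (0.03) scaling.

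Dusp10, which acts on JNK and p38, had 4.27, 2.93 and 3.09 TPM in the Ifnar1-SA libraries and 4.19, 5.01 and 5.13 TPM in the WT libraries. The groups overlapped through Ifnar1-SA 1 and WT 1 only. Means were 3.43 ± 0.733 TPM in Ifnar1-SA and 4.78 ± 0.512 TPM in WT (SD, n = 3 each). Dusp10 had a log2 difference of -0.39 ± 0.17 (standard error) and a 95% interval of -0.80 to 0.02 (limma, unadjusted p = 0.0579, adjusted p = 0.9997). Dusp16, another phosphatase of JNK and p38 and no member, ran the other way. It was at 10.7, 10.2 and 10.1 TPM in Ifnar1-SA and 6.72, 8.62 and 8.69 TPM in WT, without overlap (limma log2 difference 0.34, adjusted p = 0.9997).

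Sprouty and Spred transcripts were scarce. Spry1, an inhibitor of RAS to ERK signalling, was at 1.91, 1.05 and 1.61 TPM in Ifnar1-SA and 1.84, 2.30 and 1.98 TPM in WT. Ifnar1-SA 1 exceeded WT 1, and the log2 difference was -0.28 ± 0.19 (standard error; limma, adjusted p = 0.9997). Without Ifnar1-SA 2 it was -0.14 (limma, unadjusted p = 0.527), and with 0.1 TPM added in place of 1 it was -0.43 (limma, unadjusted p = 0.182). Spry2, a close relative with the same action, was at 0.520, 1.01 and 1.01 TPM in Ifnar1-SA and 0.763, 0.825 and 1.16 TPM in WT. These ranges overlapped (log2 difference -0.06, exact two-sided permutation p = 0.8). Spred1, which brings the RAS inhibitor neurofibromin to the membrane, was at 0.568, 0.623 and 0.618 TPM in Ifnar1-SA and 0.773, 0.888 and 0.736 TPM in WT. Its groups did not overlap, with means of 0.603 ± 0.0307 TPM in Ifnar1-SA and 0.799 ± 0.0795 TPM in WT (SD, n = 3 each). The share of all genes without overlap was taken past the filter only, so it does not cover Spred1. Spred1 had a log2 difference of -0.17 and an exact two-sided permutation p = 0.1, below which 3 against 3 libraries cannot go. With 0.1 TPM added in place of 1, the difference of Spred1 was -0.35. At these levels the added 1 TPM understates a change, and the number of reads behind each value is unknown. Nf1, which encodes neurofibromin, was itself at 0.366 to 0.518 TPM in Ifnar1-SA and 0.339 to 0.691 TPM in WT.

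**Figure D3:**
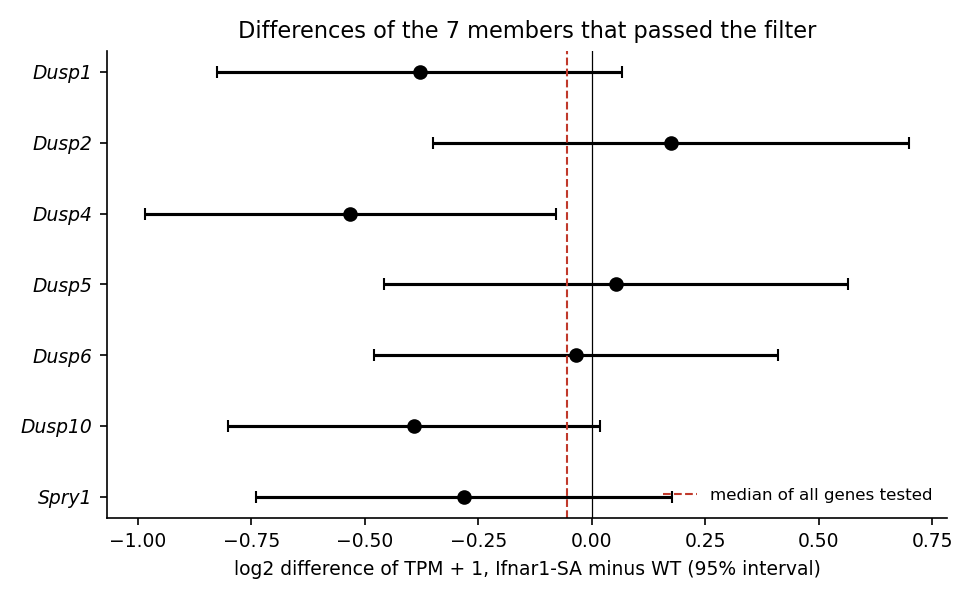
Log2 difference of TPM + 1, Ifnar1-SA minus WT, for the 7 members above the filter, with 95% intervals from limma, not adjusted for multiple testing. The interval of Dusp4 (-0.98 to -0.08) lies below 0, those of the other 6 include 0, and the dashed line marks the median of all genes at -0.06.

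The library scale bore on these values. Median-of-ratios scaling gave factors of 1.15, 0.921 and 0.894 for the Ifnar1-SA libraries and 1.01, 1.13 and 0.948 for the WT libraries, so that Ifnar1-SA 1 and WT 2 were scaled down most. Dusp4 was then at 26.7, 25.0 and 25.1 scaled TPM in Ifnar1-SA, against 32.5, 38.8 and 36.6 in WT. The spread of Dusp4 within Ifnar1-SA narrowed to an SD of 0.921, from 4.63 as deposited. Dusp10 was at 3.70, 3.18 and 3.45 scaled TPM in Ifnar1-SA and 4.16, 4.42 and 5.42 in WT, and these no longer overlapped. Spry1 was also separated, with 1.65, 1.14 and 1.80 scaled TPM in Ifnar1-SA and 1.83, 2.03 and 2.09 in WT. On this scale 3 of the 7 tested members, Dusp4, Dusp10 and Spry1, were lower without overlap, as were 4.57% of all genes, and 0 were higher (4.38% of all genes). Spred1, under the filter, also stayed separated. In limma with this scaling the unadjusted p was 0.0034 for Dusp4 and 0.0265 for Dusp10, with adjusted p of 0.655 and 0.986.

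Ratios of transcripts within a library do not depend on the scaling between libraries. Of many possible ratios, 4 were chosen after the values were seen. The p-values given for them do not allow for that choice, so the ratios serve as description only. Dusp4 over Dusp5 was 0.696, 0.625 and 0.553 in the Ifnar1-SA libraries and 1.04, 0.834 and 0.980 in the WT libraries. All Ifnar1-SA ratios were below all WT ratios. The mean log2 ratio differed by -0.61 (exact two-sided permutation p = 0.1, adjusted over the 4 ratios 0.2). Dusp10 over Dusp16, the pair acting on JNK and p38, was 0.399, 0.287 and 0.307 in Ifnar1-SA and 0.623, 0.581 and 0.591 in WT. These were also separated (log2 difference -0.87, exact two-sided permutation p = 0.1, adjusted 0.2). Dusp4 over Dusp6 was 0.752, 0.639 and 0.654 in Ifnar1-SA and 0.724, 1.11 and 1.15 in WT, and overlapped through WT 1. Dusp4 over Dusp2 was 1.09, 0.693 and 0.455 in Ifnar1-SA and 0.968, 1.43 and 1.14 in WT, and overlapped as well. Both had an exact two-sided permutation p of 0.2.

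**Figure D4:**
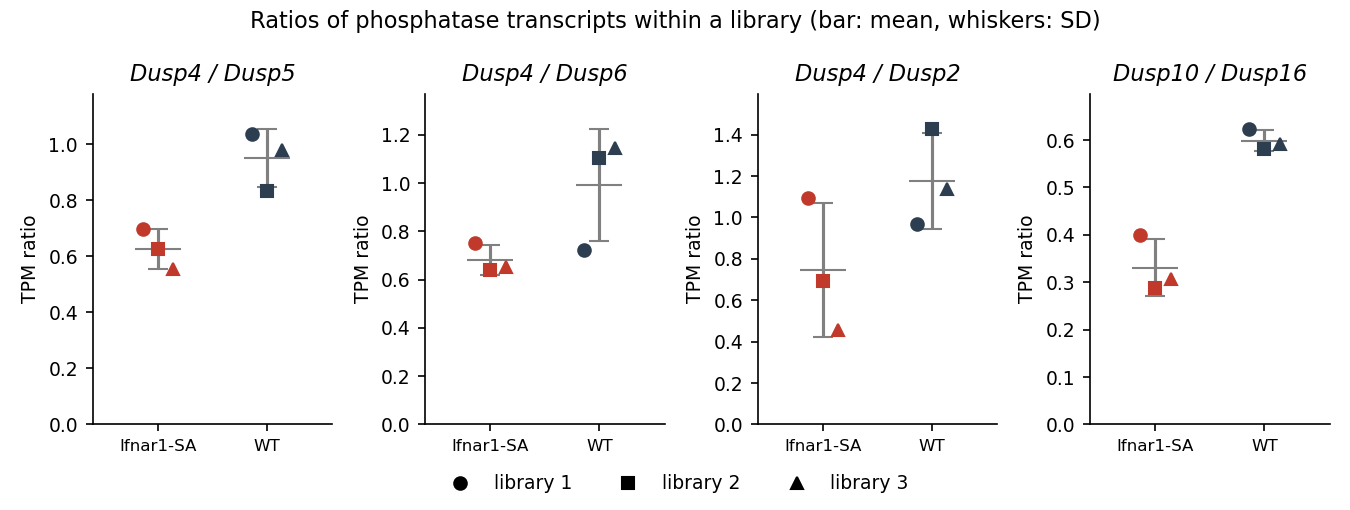
Ratio of TPM within a library for 4 pairs of phosphatase transcripts, Ifnar1-SA left of WT, with the mean as a bar, SD as whiskers and the symbol giving the library number. Dusp4 over Dusp5 (0.553 to 0.696 against 0.834 to 1.04) and Dusp10 over Dusp16 (0.287 to 0.399 against 0.581 to 0.623) are separated, and the other 2 ratios overlap.

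Profiles of the 7 tested members over the 6 libraries were compared by the root mean square difference of log2(TPM + 1), each gene centred on its own mean. This is a description over 6 libraries that share their scaling. A gene's own spread, by the same measure 0.182 for Dusp6, 0.215 for Spry1 and 0.326 for Dusp4, bears on its distances. The added 1 TPM narrows the spread of a scarce gene such as Spry1. The closest pair was Dusp1 and Spry1 (0.073), followed by Dusp1 and Dusp10 (0.117), Dusp10 and Spry1 (0.118) and Dusp4 and Dusp10 (0.128). Dusp6, also with a slightly lower mean in Ifnar1-SA, was farther from these 4, at 0.257 from Spry1 to 0.331 from Dusp4. Dusp5, with a higher mean, was at 0.241 from Spry1 to 0.320 from Dusp4. Dusp2 and Dusp4 were the farthest apart (0.525). Over all tested genes, the 2 closest to Dusp4 were Net1 (0.0551) and Ccdc47 (0.0564), and 34 genes lay within 0.1. For Dusp1 they were Dennd5a and Gstp2, for Dusp5 Mindy2 and Trim8, for Dusp6 Ippk and Serp1, for Dusp10 Prpf40b and Ssbp2, and for Spry1 Brf2 and Gstp2. Between 34 and 452 genes lay within 0.1 of these members, so the nearest are 2 of many. Dusp2 had 0 genes within 0.1, and its nearest were Rnf183 (0.116) and Gm16675 (0.128).

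The rest of the DUSP family was measured beside the members. Of 18 other DUSP genes and relatives, 11 passed the filter, with 8 log2 differences above 0 and 3 below and a median of 0.09, against -0.06 for all genes. None was called (limma, 0 by adjusted p and 0 by unadjusted p under 0.05). Of the 11 tested, Dusp16, given above, was the 1 gene higher without overlap, beside 1.97% of all genes. Dusp23 and Dusp11 were the 2 lower without overlap, beside 3.8% of all genes. Their separation holds only for TPM as deposited, not after division by the median-of-ratios factors (0.921 for Ifnar1-SA 2, 1.01 for WT 1). Dusp16 stayed higher without overlap on that scale. Dusp23, an atypical small phosphatase, was at 5.07 ± 0.342 TPM in Ifnar1-SA and 6.72 ± 1.33 TPM in WT (SD, n = 3 each), lower without overlap. Dusp11, which acts on the ends of RNA rather than on kinases, was at 10.7 ± 0.297 TPM in Ifnar1-SA and 12.8 ± 1.87 TPM in WT, also without overlap. The most abundant were Dusp14, a brake on antigen receptor signalling, at 17.3 ± 1.84 TPM in Ifnar1-SA and 15.8 ± 5.71 TPM in WT, and Dusp22, which acts on the kinase Lck, at 14.5 ± 0.954 TPM in Ifnar1-SA and 14.2 ± 0.782 TPM in WT. Of 4 other Sprouty and Spred genes, Spry3 and Spry4 were under the filter. Spred2 was at 3.10 ± 0.425 TPM in Ifnar1-SA and 3.58 ± 0.688 TPM in WT, and Spred3 at 1.04 ± 0.0929 TPM in Ifnar1-SA and 1.15 ± 0.373 TPM in WT.

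No transcript of the cascade that these inhibitors restrain passed the test. Of 27 RAS to ERK genes 25 were tested, with 5 above 0 and 20 below (median -0.09), and 0 were called. Rasgrp1, the RAS activator downstream of the T cell antigen receptor, was at 7.81, 4.80 and 5.97 TPM in Ifnar1-SA and 8.15, 9.36 and 9.15 TPM in WT. It was lower without overlap (limma log2 difference -0.48, unadjusted p = 0.0368, adjusted p = 0.9997). Hras was at 4.40 ± 0.190 TPM in Ifnar1-SA and 3.28 ± 0.670 TPM in WT, higher without overlap. The separation of Hras holds only for TPM as deposited, not after median-of-ratios scaling. The kinases that activate ERK overlapped, with Map2k1 at 69.1 ± 9.39 TPM in Ifnar1-SA and 82.1 ± 12.2 TPM in WT, and Map2k2 at 74.4 ± 15.3 TPM in Ifnar1-SA and 68.6 ± 6.27 TPM in WT. Of 15 negative regulators of RAS 10 were tested, with 2 above 0 and 8 below (median -0.05), and 0 were called. Dok2, an adaptor that recruits a RAS inhibitor, was at 138 ± 29.6 TPM in Ifnar1-SA and 103 ± 19.4 TPM in WT. Pebp1, an inhibitor of RAF, was at 487 ± 66.8 TPM in Ifnar1-SA and 484 ± 62.9 TPM in WT. Rasa2 was at 7.90 ± 1.04 TPM in Ifnar1-SA and 9.15 ± 1.47 TPM in WT, and Cbl, a ubiquitin ligase, at 4.90 ± 1.42 TPM in Ifnar1-SA and 5.96 ± 1.499 TPM in WT.

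Of 27 genes of the p38 and JNK cascades 25 were tested, with 10 above 0 and 15 below (median -0.05), and 0 were called. Mapkapk2, a kinase activated by p38, was at 76.8, 88.3 and 79.5 TPM in Ifnar1-SA and 62.5, 52.2 and 53.7 TPM in WT. The groups were separated (limma log2 difference 0.53, unadjusted p = 0.0091, adjusted p = 0.9997). Gadd45g, a stress protein that activates a kinase above p38 and JNK, was at 91.2, 84.4 and 72.7 TPM in Ifnar1-SA and 110, 119 and 97.1 TPM in WT, lower without overlap (limma unadjusted p = 0.0465). Map3k1, a kinase above JNK, was at 7.46, 9.67 and 8.06 TPM in Ifnar1-SA and 9.498, 16.3 and 13.2 TPM in WT, with an overlap through Ifnar1-SA 2 (limma unadjusted p = 0.0366). Map2k3, a kinase that activates p38 and the most abundant of the list after Gadd45g, was at 86.2 ± 16.0 TPM in Ifnar1-SA and 74.7 ± 20.6 TPM in WT.

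Genes linked to the ERK response lay on both sides of 0. Most of this list are transcripts that ERK signalling is known to induce. It also holds Bcl2l11, which ERK signalling represses, and transcription factors such as Srf, Elk1, Elk4 and Etv6 that act under its control, so its members need not move one way. Of 33 genes 29 were tested, with 12 above 0 and 17 below (median -0.04), and 0 were called. Junb was at 580 ± 44.8 TPM in Ifnar1-SA and 621 ± 69.1 TPM in WT, and Ier3 at 278 ± 51.4 TPM in Ifnar1-SA and 317 ± 27.3 TPM in WT. Myc was at 166 ± 23.9 TPM in Ifnar1-SA and 189.9 ± 21.2 TPM in WT, and all 3 overlapped. Zfp36l1, an RNA-binding protein of messenger decay, was at 17.4, 17.0 and 21.03 TPM in Ifnar1-SA and 14.7, 11.8 and 14.8 TPM in WT, higher without overlap (limma unadjusted p = 0.0433). The separation of Zfp36l1 holds only for TPM as deposited, not after median-of-ratios scaling. Phlda1 was at 16.9, 32.8 and 24.8 TPM in Ifnar1-SA and 25.5, 9.09 and 8.95 TPM in WT. WT 1 was above 2 of the 3 Ifnar1-SA libraries, and the difference did not pass (limma log2 difference 0.85, adjusted p = 0.9997). Over the 6 pathway lists, 102 of 124 genes were tested, and 0 were called. In TPM as deposited 4 were higher without overlap (3.92% of those tested, against 1.97% of all genes) and 4 lower (3.92%, against 3.8% of all genes). By unadjusted p under 0.05, 2 were higher (1.96%, against 1.44% of all genes) and 3 lower (2.94%, against 1.68% of all genes).

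**Figure D5:**
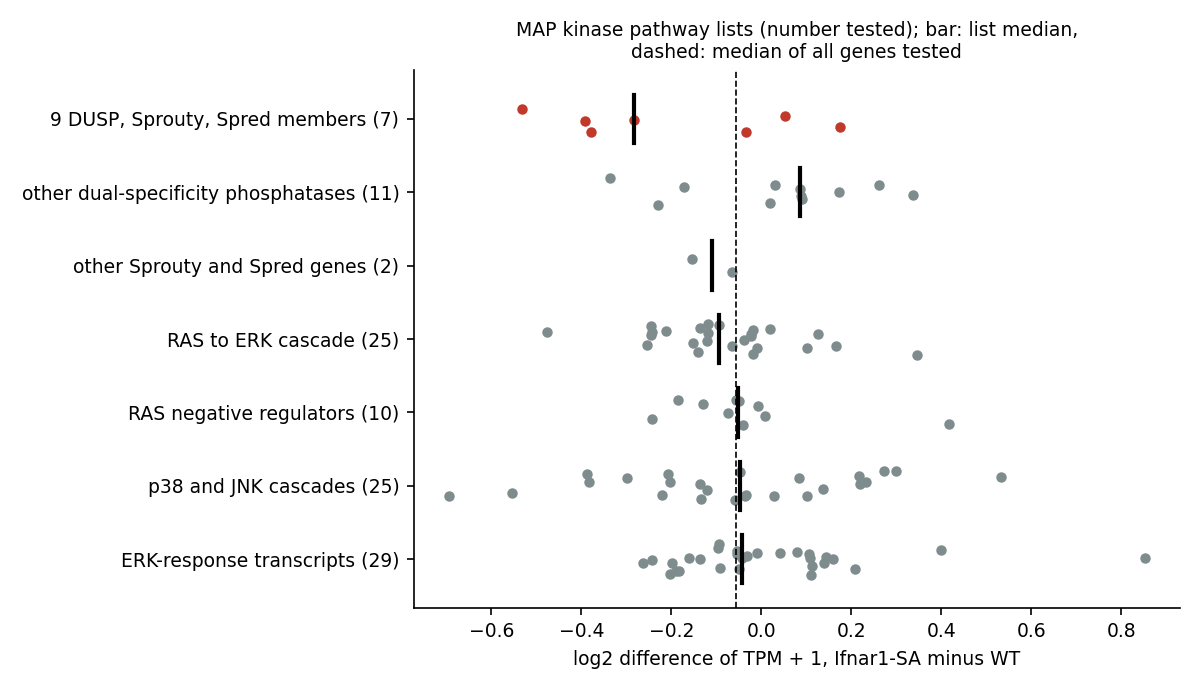
Log2 difference of TPM + 1, Ifnar1-SA minus WT, for every tested gene of the members (red) and of 6 MAP kinase pathway lists (grey), with list medians as bars and the median of all genes dashed. The members have a median of -0.28 and the other dual-specificity phosphatases 0.09, while the other 5 lists lie between -0.11 and -0.04.

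Markers of other cell types were low in both genotypes. The 6 B cell markers summed to 8.29 to 12.6 TPM in Ifnar1-SA and 7.56 to 17.8 TPM in WT, and the 6 myeloid markers to 9.90 to 12.1 TPM in Ifnar1-SA and 8.62 to 14.5 TPM in WT. The 6 CD8 T and NK markers summed to 12.2 to 18.0 TPM in Ifnar1-SA and 12.5 to 20.0 TPM in WT. The 5 dendritic markers summed to 3.62 to 5.15 TPM in Ifnar1-SA and 3.39 to 7.25 TPM in WT. The 6 neutrophil and mast cell markers summed to 1.26 to 3.06 TPM in Ifnar1-SA and 0.790 to 4.28 TPM in WT, and the 4 erythroid markers to at most 0.951 TPM, with Hbb-bs at 0 throughout. All these ranges overlapped between the genotypes. The 6 T cell markers summed to 1932 to 2163 TPM in Ifnar1-SA and 1799.5 to 1892 TPM in WT, without overlap and higher in Ifnar1-SA. These sums were not scaled by the median-of-ratios factors (1.15 for Ifnar1-SA 1), so their separation holds only for TPM as deposited. Taken singly, 2 of the 6, Cd3d and Cd3g, were separated in TPM as deposited, and Cd3e was lower in Ifnar1-SA with overlap (log2 difference -0.16). Among the 6 Treg markers, Foxp3, given above, was higher in Ifnar1-SA without overlap in TPM as deposited. So was Ctla4, at 762 to 876 TPM in Ifnar1-SA and 482 to 698 TPM in WT. The other Treg markers overlapped, with log2 differences of 0.17 for Il2ra, -0.06 for Tnfrsf18, -0.21 for Ikzf2 and -0.31 for Lrrc32. The markers thus did not move one way. The part of these T cell and Treg markers in the results was not tested.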

How the data were processed

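TPM per gene was deposited by the authors as 1 table of 6 libraries. The submitters' processing notes name Salmon and the builds mm10 and GRCm38. The version, annotation, read filters and strand setting are not stated there. Columns were matched to samples by title, and groups taken from the genotype in the title. Values were tested as log2(TPM + 1) for genes averaging 1 TPM or more, with limma 3.58.1 (R 4.3.3), intensity trend, no replicate block, two-sided, Benjamini-Hochberg adjusted over all genes tested at 0.05. No count model was used, since TPM keeps no depth. Genes under the filter and ratios were compared with exact permutation tests (scipy 1.17.1, numpy 2.4.6, pandas 2.3.3, Python 3.11.15, matplotlib 3.10.9). Library scalings were tried as alternatives, namely quantile, median-of-ratios and TMM, a trimmed mean of log ratios. So were pseudocounts of 0.1 and 0.5, other filters and variance models, a replicate block and leaving libraries out. The limma procedure was tested on simulated data with known changes. There it called 37.7% of 2-fold and 87.1% of 4-fold changes, and 6.17% of its calls were false. Most 2-fold changes were thus missed, which limits what an absence of calls can show.

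Members and lists were chosen with earlier results of these data known. All 9 members are named. From each of 6 pathway lists, the 3 genes of smallest p and the 2 of highest mean are named, plus the 2 genes nearest in profile to each tested member. Nf1, Dusp16 as a pair with Dusp10 and the 4 ratios were chosen after values were seen.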

Additional observations from a re-analysis of the deposited data

How the results depend on the processing

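Over 18 alternatives, 0 members and 0 genes of the 6 pathway lists were called in any. Among the members, the lowest limma adjusted p was 0.284, for Dusp4 with array weights. Dusp4 was lower in all 18 (log2 difference -0.67 to -0.41), as was Dusp1 (-0.48 to -0.23). Dusp10 (-0.54 to -0.31) and Spry1 (-0.43 to -0.14) were lower in all 17 that could be run for them, and Spred1 (-0.35 to -0.11) in all 12. A mean of at least 5 TPM left out Dusp10, Spry1, Spry2 and Spred1, and settings of the limma fit and quantile scaling do not apply to the exact tests of the last 2. Leaving out 1 library moved Dusp2 between -0.0497 and 0.346, Dusp5 between -0.0925 and 0.266, Dusp6 between -0.192 and 0.0902 and Spry2 between -0.128 and 0.0751, so these 4 changed sign. Dusp6 was at 0.0265 with median-of-ratios, 0.0279 with TMM and 0.0066 with quantile scaling and 0.0453 with array weights, and Spry2 was at 0.0430 without WT 2 and Ifnar1-SA 1, a pair that an earlier analysis of these data found to stand apart. The cause was not tested. Of all genes, 2 were called higher and 5 lower. The count higher was 1 with no filter and with each of the 3 scalings, 0 with a mean of at least 5 TPM, 4 with robust empirical Bayes, 0 without that pair and 2 to 10 without 1 library. The count lower was 12 and 11 with pseudocounts of 0.1 and 0.5, 1 with a mean of at least 5 TPM, 8 with robust empirical Bayes, 9 with array weights, 0 without that pair and 8 to 26 without 1 library. Correlations of deviations between libraries of the same replicate number were -0.11, -0.11 and 0.15 for numbers 1, 2 and 3. With 3 libraries per genotype, they cannot tell whether the numbers pair the samples. The highest of the 9 correlations across genotypes, 0.25, was between Ifnar1-SA 1 and WT 2, the pair named above. With a replicate block 0 genes were called higher and 0 lower. Depth is unknown, which limits Spry2 and Spred1 most.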
